A study of Mus musculus with 80 samples.

Results

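Collagens, laminins and integrins, the genes for the fibrous and sheet-forming proteins of the extracellular matrix and for the receptors that hold cells to it, were followed in mouse embryonic stem cells (ESCs) moved from serum medium to 2i. Members were taken by name, with no measured value in the rule: Col, digits, a and digits, or Lam, one of the letters a to c and digits, or Itg, a or b, digits and any closing letters. The rule found 76 of the 25965 rows of the expression table. These were 43 collagen chains, 11 laminin chains, 12 integrin alpha chains and 9 integrin beta chains, and 1 row, Itgb3bp, whose name matches but whose product is a centromere protein and not an integrin chain. Integrin alpha chains named by a letter, such as Itgav, are outside the rule. RNA-seq covered the wild-type ESC line E14 in serum with LIF and after 6 h, 24 h and 72 h in 2i, with 3 libraries in each of the 4 groups. In 2i, serum is replaced by the defined medium N2B27 with LIF, the MEK inhibitor PD0325901 and the GSK3 inhibitor CHIR99021. The histone mark H3K9me2 was mapped by ChIP-seq in the same line in serum, after 24 h in 2i and in long-term 2i (LT2i), with 2 bound libraries and 1 input each. All these groups share the genotype and the line, so results hold for 1 line. A figure legend of the study calls its expression replicates biological. The labels do not say that the libraries of a group came from separate cultures, and p-values measure the spread between these libraries.

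Collagens are trimers of alpha chains. Fibrillar collagens (types I, II, III, V and XI) build fibres in connective tissue, type IV builds the network of basement membranes, and types XV and XVIII sit in basement membranes as proteoglycans. Laminins are trimers of 1 alpha, 1 beta and 1 gamma chain and form the other network of the basement membrane. Integrins are pairs of 1 alpha and 1 beta chain. Itgb1 joins most of the alpha chains listed here, and its pairs with Itga3, Itga6 and Itga7 are receptors for laminin. Pairs with Itga1, Itga2, Itga10 and Itga11 bind collagen, and the pair with Itga5 binds fibronectin. ESCs make laminin and type IV collagen and lay down a basement membrane when they begin to differentiate.

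Promoter sequence was matched for 57 members in the RefSeq table of GRCm38.p6, where a window holds 250 bases before a gene's start and 50 after it, and 50 of these windows had a start within 200 bases of the start in the expression table. Col4a1 and Col4a2, the chains of the common type IV trimer, lie head to head on chromosome 8. Their starts are 21 bases apart, at 11312826 on the minus strand for Col4a1 and 11312805 on the plus strand for Col4a2, so the first 22 bases of each gene overlap the other. The shared stretch, chr8:11312805-11312826 on the plus strand, is shown because it is the whole of what separates the 2 starts.
Col4a2 start to Col4a1 start: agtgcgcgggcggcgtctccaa
The 120 bases before the start are shown for Lama5 and Itga3, which fell at 24 h and 72 h, and for Lamb2 and Col20a1, which rose by 72 h, 5′ to 3′ on each gene's own strand, with every CpG in capitals. The RefSeq start of Itga3 lies 87 bases inside the gene as the expression table places it, so 87 of its 120 bases fall within that span. The 4 stretches were read from chr2:180225860-180225979 (minus strand), chr11:95076715-95076834 (minus strand), chr9:108479742-108479861 (plus strand) and chr2:180986415-180986534 (plus strand).
Lama5: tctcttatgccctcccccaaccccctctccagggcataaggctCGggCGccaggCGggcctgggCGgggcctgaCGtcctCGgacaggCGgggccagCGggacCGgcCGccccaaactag
Itga3: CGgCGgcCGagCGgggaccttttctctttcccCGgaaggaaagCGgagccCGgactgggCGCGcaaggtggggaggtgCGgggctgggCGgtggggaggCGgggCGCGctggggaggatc
Lamb2: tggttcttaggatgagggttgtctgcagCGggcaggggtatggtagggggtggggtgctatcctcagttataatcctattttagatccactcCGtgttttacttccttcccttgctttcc
Col20a1: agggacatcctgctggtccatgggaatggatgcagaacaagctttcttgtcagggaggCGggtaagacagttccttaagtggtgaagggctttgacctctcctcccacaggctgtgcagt
Over the whole window of 300 bases Lama5 held 24 CpGs, Itga3 24, Lamb2 4 and Col20a1 1. CpG content did not follow direction throughout: Col13a1, which also rose, held 29, and Itgb7, which fell, held 5. Counts were highest at Col4a1 (37), Col5a1 (34) and Col4a2 (33), while the other type IV starts that were matched, those of Col4a4, Col4a5 and Col4a6, held 14, 11 and 3. The 50 members had a median of 12 CpGs, against 7 over all 32851 promoters of the table. The 17 of them that were expressed highly enough to be tested had a median of 20, and the 33 below that level a median of 9. The GC box GGGCGG, on either strand, lay in 56% of the members' windows and 35.7% of all windows. CCAAT lay in 24% and 37.4%, TATAAA in 8% and 13.6%, and the AP-1 site TGACTCA in 2% and 5.2%, all on either strand. These are matches of letters and show no binding.

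Expression values are log2 read density over a length of each gene. The authors scaled them so that the 75th percentile was 2.51 in every library. That length is not the genomic span from start to end. In serum replicate 1, Col1a1 (span 16.8 kb) had 614 reads at a log2 level of 2.31. Col4a1 (span 114.4 kb) had 1374 reads at 3.42, a similar number of reads per unit of linear level. A difference of 1 is a factor of 2, and levels may be compared between genes on this scale. Whole reads could be recovered from the values for all 76 members, and the libraries held 10248895 to 15163962 reads in genes. Of the 76 members, 28 reached a log2 level of 0 in at least 3 of the 12 libraries and were tested with limma among 12306 genes: 12 collagens, 6 laminins, 4 integrin alpha chains, 5 integrin beta chains and Itgb3bp. Some passed only through groups where they were high. These were Col13a1 and Col20a1 (24 h and 72 h), Col9a3 (6 h and 24 h), Col5a3 (6 h) and Itgb3 (6 h and 72 h). Col7a1 and Itga9 passed through serum and 6 h, and Col2a1 through these and 24 h. Calls of these members are not independent of the filter. The other 48 are described further on by their reads. Tested members held between 896 and 100385 reads over the 12 libraries. No member of the untested set held more than 1602, and Col4a3 and Itgb2l held none.

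After 6 h in 2i, 3 of the 28 tested members were higher and 5 lower than in serum at an adjusted p under 0.05, while 9.13% of all genes tested were called higher and 6.48% lower. At 24 h, 5 were higher and 13 lower, against 34.2% and 29.1% of all genes. At 72 h, 5 were higher and 12 lower, against 25.7% and 26.5%. Between 24 h and 72 h, 7 rose and 5 fell, against 15.8% and 15.7%. For the 28 members together the median change in the order of these times was 0.09, -0.57 and -0.32, beside 0.01, 0.11 and -0.01 for all genes tested. No member was called in one direction at 24 h and in the other at 72 h. The families were not tested against each other. At 6 h 4 of 9 integrins were lower, 3 alpha chains and 1 beta chain, while 1 of 12 collagens was lower and 3 higher. No laminin of the 6 tested was called at 6 h by limma, with an unadjusted p under 0.05 in 0 of the 6 and 0 calls by limma voom on the recovered reads. Between 24 h and 72 h 4 of 6 laminins rose, and the 4 calls among collagens were falls. Single libraries weighed on 2 of these counts. The 3 rises at 6 h came to 1 without serum replicate 1 or 2 or without 6 h replicate 2 or 3. The 7 rises from 24 h to 72 h came to 3 without 24 h replicate 1 or 2 or 72 h replicate 1 or 3. Without 24 h replicate 3 they came to 10. The counts over all genes moved the same way. Those higher at 6 h went from 1123 to between 735 and 756 in these fits. From 24 h to 72 h they went from 1949 to between 1255 and 1472, and to 2951 without 24 h replicate 3.

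**Figure D1:**
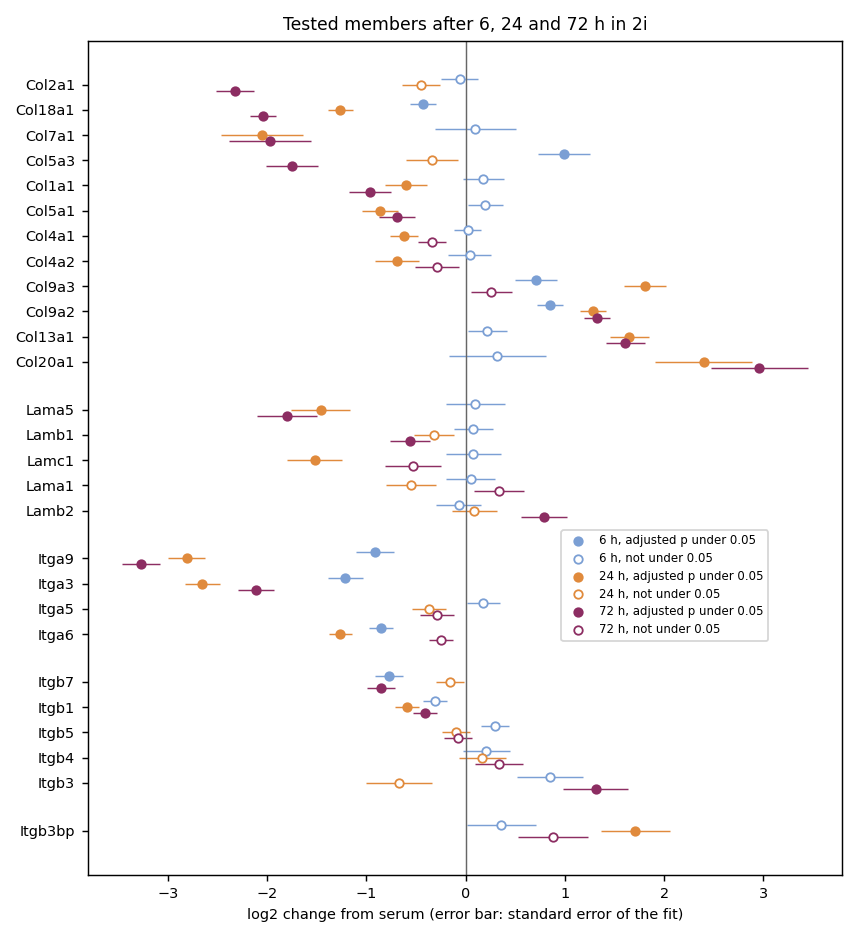
Log2 change from serum of 27 of the 28 tested members at 6 h, 24 h and 72 h in 2i, by family, with the standard error of the limma fit (3 libraries per group). Filled points had an adjusted p under 0.05; the largest fall at 72 h was that of Itga9 (-3.27) and the largest rise that of Col20a1 (2.96).

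The libraries of a group did not scatter at random around its mean for these genes. At 24 h, replicate 1 was the lowest of the 3 libraries in 24 of the 28 tested members and replicate 3 the highest in 22, whereas over all genes tested replicate 1 was lowest in 35.3% and replicate 3 highest in 38.5%. Replicate 3 was also the highest in serum for 23 members and at 6 h for 24, against 45.8% and 42.9% of all genes. At 72 h replicate 2 was the lowest for 20, against 40.3%. Gene span, the genomic distance from start to end, moved with both patterns. The 20% of genes with the longest spans, of 58.2 kb or more, hold 14 of the 28 members, and among these genes replicate 1 was lowest at 24 h in 55.1% and replicate 2 at 72 h in 71.8%. Of the same genes 49.4% were called lower at 24 h, with a median change of -0.41, against 13% and 0.53 for the 20% with the shortest spans. With the trend on span removed from every library, 5 members were higher and 13 lower at 24 h, against 31.2% of all genes in each direction. Calls were gained by Col2a1 (-0.46, adjusted p = 0.0427) and Itga5 (-0.46, adjusted p = 0.0308) and lost by Col4a1 (-0.22, adjusted p = 0.053) and Col4a2 (-0.26, adjusted p = 0.144).

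Among collagens, Col18a1, a basement membrane proteoglycan and the source of endostatin, had the highest level and was below serum at every time. Its log2 level was 6.04, 5.97 and 6.26 in the serum libraries, 5.65, 5.57 and 5.77 at 6 h, 4.61, 5.03 and 4.86 at 24 h, and 4.21, 3.94 and 4.00 at 72 h. Each group lay wholly below the one before it. The change was -1.26 at 24 h (SE 0.13, adjusted p = 1.51e-05) and -2.04 at 72 h (SE 0.13, adjusted p = 2.96e-07). At 6 h it was -0.43 with an adjusted p of 0.0479 in limma, a call that was lost when any single serum or 6 h library was left out. The gene overlaps Slc19a1 on the other strand, and the library kit does not mark strand, so reads of the overlap cannot be assigned to either gene. The same holds for Col9a3 with Tcfl5, Col4a1 with Col4a2, and parts of Col5a1, Itga9, Itga8, Col12a1 and Col22a1 that overlap other rows on the opposite strand.

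Both common type IV chains were lower than in serum at 24 h. Col4a1 stood at 3.42, 3.27 and 3.63 in serum, 3.39, 3.41 and 3.59 at 6 h, 2.59, 2.83 and 3.05 at 24 h and 3.14, 2.95 and 3.22 at 72 h. Col4a2 stood at 2.75, 2.57 and 3.01 in serum, 2.79, 2.66 and 2.98 at 6 h, 1.57, 2.16 and 2.53 at 24 h and 2.54, 2.24 and 2.67 at 72 h. The falls at 24 h were -0.62 (SE 0.14, adjusted p = 0.00292) for Col4a1 and -0.69 (SE 0.22, adjusted p = 0.0175) for Col4a2, both in limma. In this fit neither gene was called at 72 h or between 24 h and 72 h. With the span trend removed Col4a1 was called lower at 72 h (-0.23, adjusted p = 0.0482). With the replicate number as a block it was called at 72 h (-0.34, adjusted p = 0.0145) and from 24 h to 72 h (0.28, adjusted p = 0.0427). The call for Col4a2 was lost without serum replicate 3 (-0.57, adjusted p = 0.0713) or without 24 h replicate 1 (-0.43, adjusted p = 0.0647). Within each library Col4a1 exceeded Col4a2 by 0.52 to 1.01 on the log2 scale, and by 0.66 ± 0.04 (SD, n = 3) in serum and 0.62 ± 0.08 (SD, n = 3) at 72 h. The other type IV chains were hardly read. Col4a3 and Col4a4, whose starts lie 72 bases apart on chromosome 1, had 0 and 14 reads over the 12 libraries, and Col4a5 and Col4a6, 1309 bases apart on X, had 301 and 69.

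Among fibrillar collagens, Col2a1, the cartilage fibril chain, was at 0.58, 0.71 and 0.91 in serum, 0.73, 0.53 and 0.77 at 6 h and -0.06, 0.33 and 0.59 at 24 h, where groups overlapped, and then at -1.68, -1.44 and -1.64 at 72 h. Its change at 72 h was -2.32 (SE 0.19, adjusted p = 1.56e-06), and most of it fell between 24 h and 72 h (-1.88, adjusted p = 4.2e-05). The change at 24 h was -0.45 (adjusted p = 0.0534), and with the replicate number as a block it passed (adjusted p = 0.0373). Col7a1, which is not fibrillar but the chain of the anchoring fibrils below epithelia, was at 0.72, 0.68 and 1.06 in serum, 0.79, 0.87 and 1.12 at 6 h, -2.08, -1.45 and -0.16 at 24 h and -1.20, -1.65 and -0.58 at 72 h. Its change was -2.05 at 24 h (SE 0.41, adjusted p = 0.00131) and -1.97 at 72 h (SE 0.41, adjusted p = 0.002).

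Col5a3, a chain that can take part in type V fibrils, rose and then fell. It stood at -1.05, -0.92 and -0.49 in serum, 0.13, 0.07 and 0.33 at 6 h, -1.39, -1.05 and -1.04 at 24 h and -3.04, -2.39 and -2.28 at 72 h. The rise at 6 h was 0.99 (SE 0.26, adjusted p = 0.0221 in limma) and was lost when any single serum library but replicate 3, or any single 6 h library, was left out. The change at 72 h was -1.75 (SE 0.26, adjusted p = 0.000172). Col5a1, the chain found in all type V trimers, fell by 0.86 at 24 h (adjusted p = 0.00147) and by 0.69 at 72 h (adjusted p = 0.00664). Col1a1, the main chain of type I fibrils, was at 2.31, 2.41 and 2.74 in serum and 1.54, 1.38 and 1.68 at 72 h, a change of -0.96 (SE 0.21, adjusted p = 0.00292). Its fall at 24 h of -0.60 (adjusted p = 0.0277) was lost without 24 h replicate 1 (-0.33, adjusted p = 0.0978) or serum replicate 3 (-0.48, adjusted p = 0.108).

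Of the 12 tested collagens, those called higher at 24 h or 72 h were Col9a2, Col9a3, Col13a1 and Col20a1. Of these, only Col9a2 reached the test level in serum, and the others were tested because of their 2i libraries. Collagens below the test level that were called higher are given further on. Col9a2, a chain of the type IX collagen that decorates cartilage fibrils, was at 1.55, 1.49 and 1.88 in serum and rose at once, to 2.51, 2.34 and 2.64 at 6 h, 2.78, 3.07 and 2.91 at 24 h and 3.01, 2.95 and 2.92 at 72 h. The change was 0.85 at 6 h (SE 0.13, adjusted p = 0.000914) and 1.32 at 72 h (SE 0.13, adjusted p = 7.61e-06). Its partner Col9a3, which overlaps Tcfl5 on the other strand, was at -1.01, -0.82 and -0.63 in serum, -0.39, -0.14 and 0.21 at 6 h, 1.10, 1.10 and 0.76 at 24 h and -0.72, -0.27 and -0.69 at 72 h. It rose too, by 0.71 at 6 h (adjusted p = 0.0386) and 1.81 at 24 h (SE 0.21, adjusted p = 2.67e-05), and then went back by 1.54 between 24 h and 72 h (log2 change -1.54, SE 0.21, adjusted p = 0.00029), to 0.26 above serum (adjusted p = 0.313). The 6 h call of Col9a3 was lost in 10 of the alternatives tried, among them quantile normalisation (0.47, adjusted p = 0.201) and leaving out serum replicate 1 (0.61, adjusted p = 0.143). Col9a1, the third chain of the trimer, held 20 reads in all 12 libraries together.

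Col13a1, a transmembrane collagen, was at -0.98, -1.21 and -1.40 in serum, -1.34, -0.85 and -0.73 at 6 h, 0.38, 0.41 and 0.56 at 24 h and 0.61, 0.22 and 0.42 at 72 h. It was called at 24 h (1.65, SE 0.2, adjusted p = 4.56e-05) and at 72 h (1.61, SE 0.2, adjusted p = 5.35e-05), and every library of either time lay above every serum library. Col20a1 had the largest rise of all members and one of the widest spreads. It was at -2.60, -2.03 and -2.06 in serum, -1.64, -2.36 and -1.74 at 6 h, -0.29, -0.57 and 1.37 at 24 h and 0.46, 0.20 and 1.54 at 72 h, with a change of 2.96 at 72 h (SE 0.49, adjusted p = 0.00042).

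Among the laminins, Lamc1, the gamma chain of most laminins, had the highest level of the family. It was at 6.01, 5.94 and 6.22 in serum, 6.06, 6.08 and 6.28 at 6 h, 3.98, 4.46 and 5.18 at 24 h and 5.72, 4.98 and 5.89 at 72 h. The libraries at 24 h lay below all of those in serum and at 6 h, with a change of -1.52 (SE 0.28, adjusted p = 0.000819). By 72 h the difference from serum was -0.53 (adjusted p = 0.14).

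Of the laminin alpha chains, Lama5, the alpha chain common in epithelia and in ESC matrix, was at 4.64, 4.65 and 5.02 in serum, 4.65, 4.84 and 5.12 at 6 h, 2.75, 3.19 and 3.96 at 24 h and 2.91, 2.51 and 3.48 at 72 h. It fell by 1.46 at 24 h (SE 0.3, adjusted p = 0.00146) and by 1.80 at 72 h (SE 0.3, adjusted p = 0.000412), and both groups lay wholly below serum. Lama1, the alpha chain of the first embryonic basement membranes, was at 3.20, 3.17 and 3.43 in serum, 3.21, 3.28 and 3.47 at 6 h, 2.20, 2.66 and 3.29 at 24 h and 3.69, 3.20 and 3.94 at 72 h. Its groups overlapped with serum at every time and it was not called against serum (-0.55 at 24 h, adjusted p = 0.0722; 0.34 at 72 h, SE 0.25, adjusted p = 0.27). With the replicate number as a block the difference at 24 h passed (adjusted p = 0.0197), and with the span trend removed that at 72 h did (0.45, adjusted p = 0.0351). It rose by 0.89 between 24 h and 72 h (SE 0.25, adjusted p = 0.019), a call that was lost without 24 h replicate 1 (0.63, adjusted p = 0.0683) and without 3 other libraries in turn.

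Of the beta chains, Lamb1 was at 3.41, 3.47 and 3.77 in serum, 3.57, 3.59 and 3.73 at 6 h, 2.90, 3.16 and 3.61 at 24 h and 3.11, 2.63 and 3.24 at 72 h, a change of -0.56 (SE 0.2, adjusted p = 0.0319 in limma) that was lost without serum replicate 2 (-0.60, adjusted p = 0.0554), serum replicate 3 (-0.45, adjusted p = 0.12) or 72 h replicate 2 (-0.38, adjusted p = 0.13). Lamb2, the beta chain of mature basement membranes and the synapse, was at 2.01, 1.96 and 2.29 in serum, 1.85, 1.94 and 2.28 at 6 h, 1.68, 2.21 and 2.65 at 24 h and 2.96, 2.61 and 3.07 at 72 h, higher by 0.79 at 72 h (SE 0.23, adjusted p = 0.0122) with no overlap with serum.

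**Figure D2:**
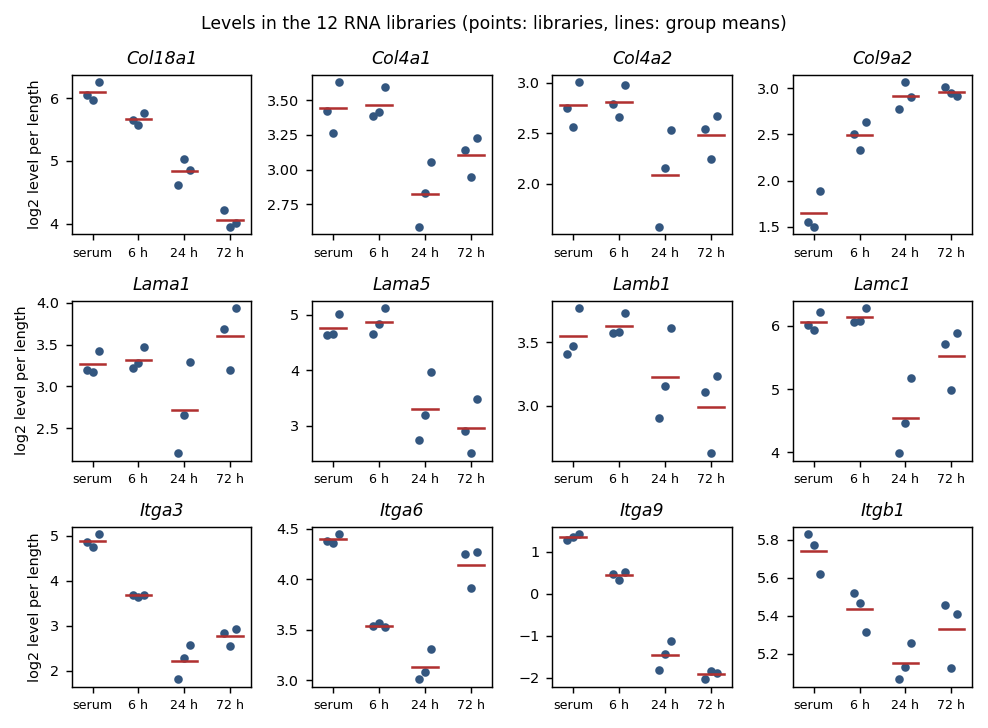
Log2 level per length of 12 members in each of the 12 RNA libraries, with group means as lines; each panel has its own scale. Col18a1 and Itga9 were lower than in serum at each time, Lamc1 and Itga6 were lowest at 24 h and higher at 72 h, and Col9a2 was higher at every time than in serum.

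Differences between chains within a library were compared as well. The level of Lama1 minus that of Lama5 was -1.44, -1.48 and -1.59 in serum, -0.55, -0.54 and -0.68 at 24 h and 0.78, 0.69 and 0.46 at 72 h, so Lama5 was the higher of the pair in serum and Lama1 at 72 h. The SD of this difference at 24 h was 0.08, while that of the levels was 0.54 for Lama1 and 0.61 for Lama5. Lamb1 exceeded Lamb2 by 1.46 ± 0.06 in serum, by 1.05 ± 0.16 at 24 h and by 0.11 ± 0.08 at 72 h (SD, n = 3). Itga6 lay below Itga3 in serum (-0.49 ± 0.10) and at 6 h (-0.13 ± 0.05) and above it at 24 h (0.91 ± 0.26) and 72 h (1.37 ± 0.03), again with n = 3. These pairs were chosen after their values were seen. A two-sided exact permutation test of 3 libraries against 3 cannot go below p = 0.1, and that value was reached in 11 of the 18 tests made over 6 pairs and 3 times (Benjamini-Hochberg adjusted p = 0.164). The exact tests of Col4a1 minus Col4a2 gave p = 0.8, 0.8 and 0.5 at 6, 24 and 72 h.

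**Figure D3:**
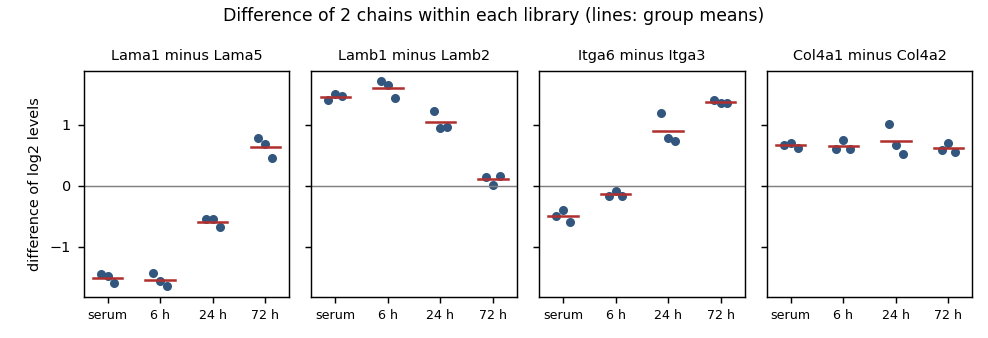
Difference between the log2 levels of 2 chains within each library, in serum and at 6 h, 24 h and 72 h in 2i (points: libraries; lines: means of 3). Lama1 minus Lama5 went from -1.50 in serum to 0.64 at 72 h and Itga6 minus Itga3 from -0.49 to 1.37, while Col4a1 minus Col4a2 stayed between 0.52 and 1.01 in every library.

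Among the integrin alpha chains, Itga3, the alpha chain of a laminin receptor, had the highest alpha chain level in serum, at 4.87, 4.74 and 5.04, and went to 3.69, 3.64 and 3.70 at 6 h, 1.81, 2.29 and 2.58 at 24 h and 2.84, 2.56 and 2.92 at 72 h. The change was -1.21 at 6 h (SE 0.18, adjusted p = 0.000676), -2.65 at 24 h (adjusted p = 5.68e-07) and -2.11 at 72 h (adjusted p = 2.16e-06). Itga9, which pairs with Itgb1 and binds tenascin and osteopontin, was lower than in serum at each time. It was at 1.28, 1.34 and 1.41 in serum, 0.47, 0.33 and 0.52 at 6 h, -1.82, -1.44 and -1.12 at 24 h and -2.04, -1.83 and -1.89 at 72 h. Its change at 6 h was -0.91 (SE 0.19, adjusted p = 0.00717 in limma). Its change of -3.27 at 72 h (SE 0.19, adjusted p = 1.26e-07) was the largest fall of the 28, and the step from 24 h to 72 h was not called (-0.46, adjusted p = 0.0842) unless the span trend was removed (-0.87, adjusted p = 0.00291).

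Itga6, the alpha chain of the other main laminin receptors, fell and returned. It was at 4.38, 4.35 and 4.44 in serum, 3.53, 3.56 and 3.53 at 6 h, 3.01, 3.08 and 3.31 at 24 h and 4.25, 3.91 and 4.27 at 72 h. The change was -0.85 at 6 h (SE 0.12, adjusted p = 0.000446) and -1.26 at 24 h (SE 0.12, adjusted p = 6.2e-06). It then rose by 1.01 (SE 0.12, adjusted p = 0.000118) to a level 0.25 under serum (log2 change -0.25, adjusted p = 0.0959), with all 3 libraries still below those of serum. Itga5, the fibronectin receptor chain, was at 4.12, 4.09 and 4.32 in serum, 4.31, 4.29 and 4.48 at 6 h, 3.43, 3.87 and 4.13 at 24 h and 3.98, 3.69 and 4.00 at 72 h. It was not called at any time (-0.37 at 24 h, adjusted p = 0.0703), but with the replicate number as a block the difference at 24 h passed (adjusted p = 0.0281), as it did with the span trend removed (-0.46, adjusted p = 0.0308). Itgav, which lies outside the rule, was lower at 24 h (-0.7, SE 0.15, adjusted p = 0.00204) and higher at 72 h (0.48, SE 0.15, adjusted p = 0.0199) than in serum.

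Itgb1, the beta chain that most of these alpha chains need, had the highest level of any integrin and moved little. It was at 5.83, 5.77 and 5.62 in serum, 5.52, 5.47 and 5.31 at 6 h, 5.07, 5.13 and 5.26 at 24 h and 5.46, 5.13 and 5.41 at 72 h. The fall was 0.59 at 24 h (log2 change -0.59, SE 0.12, adjusted p = 0.00122) and 0.41 at 72 h (-0.41, adjusted p = 0.0125), the latter lost without serum replicate 1 (-0.36, adjusted p = 0.0525) or 72 h replicate 2 (-0.31, adjusted p = 0.0518). Itgb7, a chain of lymphocyte homing receptors, was low at 6 h (-0.77, SE 0.14, adjusted p = 0.00344), near serum at 24 h (-0.16, adjusted p = 0.35) and low again at 72 h (-0.85, adjusted p = 0.000439). Its libraries read 1.91, 1.98 and 1.91 in serum, 0.91, 1.20 and 1.38 at 6 h, 1.61, 1.92 and 1.80 at 24 h and 0.91, 1.10 and 1.23 at 72 h.

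Itgb3, which pairs with Itgav and Itga2b, was the 1 of the 5 tested beta chains called higher at 72 h. It was at -0.77, -0.88 and -0.46 in serum, -0.13, 0.24 and 0.32 at 6 h, -2.19, -1.21 and -0.72 at 24 h and 0.79, 0.27 and 0.77 at 72 h. The change was 1.31 at 72 h (SE 0.33, adjusted p = 0.00548) and 1.98 from 24 h to 72 h (SE 0.33, adjusted p = 0.00104). Itgb4, the partner of Itga6 in hemidesmosomes, and Itgb5 were not called at any time. Their changes at 72 h were 0.34 (SE 0.24, adjusted p = 0.265) and -0.08 (SE 0.14, adjusted p = 0.634). Itgb3bp, which is not an integrin chain, was called in limma at 24 h only (1.71, SE 0.35, adjusted p = 0.00148), with libraries at 3.16, 2.27 and 1.54. With the replicate number as a block it was also called at 72 h (0.88, adjusted p = 0.00907) and from 24 h to 72 h (-0.83, adjusted p = 0.0187). Its span overlaps Efcab7 and Pgm2 on the other strand.

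The 48 members below the test level were read from their recovered reads, and 19 of them could be tested when the level was lowered to -2 (15154 genes), a choice made after seeing the data. Of these 19, 5 were higher and 8 lower at 24 h, against 32.3% and 26.6% of all genes in that fit, and 2 were higher and 8 lower at 72 h, against 25% and 25.1%. Adjusted p-values are given from this limma fit and then from the one with no filter beyond 1 library above the floor.

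Of the receptor chains, Itga1, Itga8, Itgb8 and Itga4 were called lower. Itga1, a collagen receptor chain, had 53, 26 and 73 reads in serum, 16, 15 and 19 at 6 h, 0, 1 and 1 at 24 h and 4, 2 and 1 at 72 h (24 h: adjusted p = 1.25e-05 and 2.1e-06). Itga8, which binds nephronectin, had 95, 55 and 89 reads in serum, 126, 122 and 122 at 6 h, 6, 12 and 38 at 24 h and 10, 9 and 7 at 72 h (72 h: adjusted p = 0.000133 and 0.000164). Itgb8 had 24, 18 and 16 reads in serum and 0, 0 and 1 at 72 h and was tested only without a filter (adjusted p = 6.78e-05), as was Itga4, with 25, 15 and 43 reads in serum, 5, 7 and 19 at 24 h (adjusted p = 0.0247) and 14, 5 and 17 at 72 h (adjusted p = 0.0473). Itga2b, known as the platelet integrin chain, went the other way, from 17, 13 and 27 reads to 45, 42 and 70 at 24 h (adjusted p = 0.00321 and 0.00397). Itgb2, the leukocyte beta chain, had 3, 5 and 8 reads in serum, 15, 19 and 21 at 24 h (adjusted p = 0.00322 and 0.00253) and 6, 4 and 7 at 72 h.

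Among the collagens below the test level (43 in all, 12 tested), 4 were called higher than in serum in at least 1 of these fits. With the level of -2, 9.3%, 32.3% and 25% of all genes were higher at 6, 24 and 72 h. Without a filter these shares were 7.15%, 25.6% and 20.4%. Col16a1 had 20, 13 and 30 reads in serum, 35, 44 and 56 at 6 h (adjusted p = 0.0187 and 0.015) and 22, 16 and 21 at 72 h. Col11a2, a fibrillar type XI chain, had 15, 18 and 20 reads in serum and 34, 30 and 68 at 24 h (adjusted p = 0.0303 and 0.032). Col22a1 had 26, 25 and 58 reads in serum, 42, 63 and 76 at 24 h (adjusted p = 0.0285 and 0.0322) and 76, 60 and 67 at 72 h (adjusted p = 0.0194 and 0.0213). Col23a1 had 4, 5 and 7 reads in serum, 13, 15 and 24 at 24 h (adjusted p = 0.00155, tested only without a filter) and 6, 5 and 8 at 72 h.

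Other low collagens were lower. Col6a5 had 117, 104 and 190 reads in serum, 64, 50 and 73 at 6 h (adjusted p = 0.0473 and 0.0381), 2, 2 and 3 at 24 h and 29, 27 and 47 at 72 h (24 h: adjusted p = 1.93e-07 and 1.87e-07; 72 h: adjusted p = 0.000241 and 0.000165). Col6a2, another type VI chain, kept its reads for 24 h, with 19, 29 and 43 in serum and 29, 29 and 51 at 24 h. It then had 4, 3 and 4 at 72 h (adjusted p = 1.11e-05 in limma, tested only without a filter). Col8a2, a chain of basement membranes of the eye, had 18, 28 and 37 reads in serum, 14, 14 and 13 at 24 h (-0.95, adjusted p = 0.151 and 0.154) and 0, 4 and 2 at 72 h (adjusted p = 0.000127 and 0.000116). Col12a1, which coats fibrils, had 84, 68 and 125 reads in serum and 12, 8 and 28 at 24 h (adjusted p = 0.000155 and 9.64e-05). Col11a1 had 149, 110 and 159 reads in serum, 50, 71 and 101 at 24 h and 251, 151 and 211 at 72 h, so it fell (adjusted p = 0.00191 and 0.0032) and was then not called against serum (adjusted p = 0.0868 and 0.114). Also called lower than in serum at 24 h or 72 h in at least 1 of these fits were Col1a2, Col3a1, Col5a2, Col6a4, Col6a6, Col8a1, Col14a1 and Col15a1.

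Lama3 and Lamb3 are chains of laminins in epithelia. Lama3 had 128, 102 and 159 reads in serum, 21, 31 and 73 at 24 h (adjusted p = 0.000629 and 0.000956) and 154, 84 and 143 at 72 h. Lamb3 had 30, 23 and 45 reads in serum and was already higher at 6 h, with 62, 41 and 72 (adjusted p = 0.0343 and 0.0465), and at 24 h, with 49, 74 and 83 (adjusted p = 0.00352 and 0.00521), before 36, 24 and 21 at 72 h. Lama4, a chain of vessel laminins tested only without a filter, had 30, 21 and 37 reads in serum, 11, 4 and 17 at 24 h (adjusted p = 0.00626) and 45, 37 and 45 at 72 h (adjusted p = 0.407). Of the remaining low members, 8 of the 76 held 10 reads or fewer over all 12 libraries, the 2 without reads among them. Intervals of such counts cover counting error only.

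**Figure D4:**
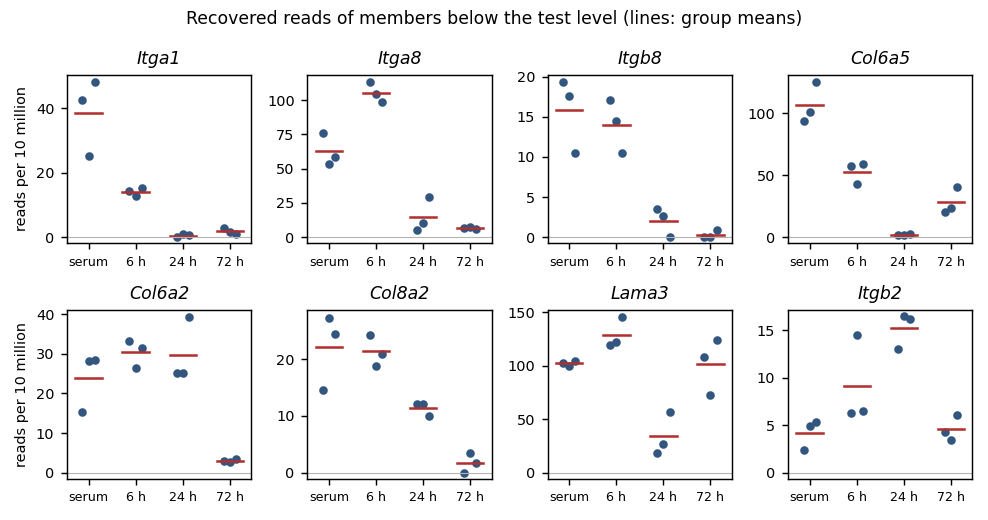
Recovered reads per 10000000 reads in genes for 8 members below the test level, in each of the 12 RNA libraries, with group means as lines; each panel has its own scale. Itga1 and Col6a5 were lowest at 24 h, Col6a2 and Col8a2 were lowest at 72 h, and Itgb2 was highest at 24 h.

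Proteins that work with these chains were followed in 4 lists, whose counts stand beside 34.2% of all genes higher and 29.1% lower at 24 h and 25.7% and 26.5% at 72 h. The list of proteins at integrin adhesion sites had 29 genes in the table and 26 tested. At 24 h, 4 were higher and 17 lower (15.4% and 65.4%), with a median change of -0.61 beside 0.11 for all genes. At 72 h, 3 were higher and 11 lower (11.5% and 42.3%, median -0.34). Between 24 h and 72 h 7 rose (26.9%) and the other 19 were not called, while 15.8% of all genes rose and 15.7% fell. Zyx, which sits on strained actin at adhesions, changed by -2.31 at 72 h (SE 0.17, adjusted p = 7.53e-07), Tns3, a tensin that binds integrin tails, by -1.63 (adjusted p = 8.48e-05), and Bcar1, an adaptor that senses stretch, by -1.66 (adjusted p = 1.7e-07). Ptk2, focal adhesion kinase, changed by -0.68 (adjusted p = 0.000361), while Kank2 was higher by 0.81 (adjusted p = 0.00132).

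The list of other basement membrane and matrix proteins had 22 genes, 13 of them tested. At 24 h, 3 were higher and 6 lower (23.1% and 46.2%, median -0.42), and at 72 h 6 were higher and 3 lower (46.2% and 23.1%, median 0.21, against -0.01 for all genes). The lower ones include Nphs1, a protein of the cell membrane and not of the matrix. In limma it changed by -1.13 at 24 h (adjusted p = 0.00262) and by -1.62 at 72 h (adjusted p = 0.000278). Hspg2, the proteoglycan perlecan, changed by -2.18 at 72 h (SE 0.37, adjusted p = 0.000485) and Thbs1, thrombospondin, by -4.42 (SE 0.14, adjusted p = 1.5e-09). Fn1, fibronectin, was higher by 1.10 (SE 0.33, adjusted p = 0.016), and Nid1, the nidogen that links laminin to type IV collagen, by 0.62 (SE 0.21, adjusted p = 0.0311).

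In the list of collagen folding and processing, 19 of 26 genes were tested, with 8 higher and 4 lower at 24 h (42.1% and 21.1%) and 6 higher and 6 lower at 72 h (31.6% each), shares near those of all genes (medians 0.29 and 0.09). Serpinh1, the collagen chaperone, was higher by 0.94 at 72 h (SE 0.16, adjusted p = 0.000435) and P4ha1, a prolyl hydroxylase subunit, by 0.84 (adjusted p = 3.77e-05). Fkbp10, a proline isomerase for collagen, changed by -2.27 (adjusted p = 2.93e-07) and Bmp1, the protease that trims procollagen, by -1.71 (adjusted p = 6.51e-07). Of the other matrix receptors, 11 of 14 were tested, with 4 higher and 4 lower at 24 h (36.4% each) and 3 higher and 4 lower at 72 h (27.3% and 36.4%), again near the shares of all genes (medians 0.04 and 0.02). At 72 h Ddr1, a receptor kinase for collagen, changed by -1.44 (adjusted p = 1.06e-05) and Bcam, a receptor for Lama5, by -0.97 (adjusted p = 8.2e-05). Ddr2, the other receptor kinase, changed by -0.94 at 24 h (adjusted p = 0.0455 in limma) and by 2.44 at 72 h (SE 0.37, adjusted p = 0.000223). Its mean in serum was -1.5, under the test level of 0, so its calls are not independent of the filter. The same may hold for other listed genes whose serum mean was under 0.

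Bulk libraries cannot tell fewer cells of a type from less RNA per cell. All 10 ESC markers of the list reached the test level, and Pou5f1 held 163520 reads. Of 12 markers of fibroblasts or feeder cells 4 reached it and Dpt and Lum had no read. The summed linear level of that list was 24.9 to 26.8 in serum, 10.6 to 12.8 at 24 h and 11.4 to 14.5 at 72 h, most of it from Acta2 (4.37 on the log2 scale in serum and 2.88 at 72 h). At 72 h 1 of its 4 tested markers was higher and 3 lower, with Pdgfrb going from -0.60 to 1.58, and the list's part in the falls of Col1a1 and the other collagens was not tested. For extraembryonic endoderm, whose cells make much laminin and type IV collagen, 7 of 15 markers reached the level, Afp had no read, and the sum was 8.85 to 9.12 in serum, 8.70 to 11.3 at 24 h and 8.70 to 9.32 at 72 h. Single markers of that list went both ways, 3 higher and 2 lower at 72 h, with Cubn going from 0.10 to -3.65 and Srgn from -0.18 to 1.18. Early mesoderm markers (5 of 8 tested) summed to 18.0 to 20.2 in serum, 22.5 to 29.9 at 24 h and 13.4 to 15.7 at 72 h. Most of this sum came from Lefty2 (3.61 on the log2 scale in serum, 4.54 at 24 h and 3.33 at 72 h). Of the tested mesoderm markers 1 was higher and 3 lower at 24 h, and 0 higher and 2 lower at 72 h. Neural markers (2 of 7) summed to 8.77 to 10.3, 4.78 to 7.99 and 4.39 to 6.30 in the same order. Most of that came from Nes (2.83 in serum, 1.97 at 24 h and 1.96 at 72 h).

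H3K9me2, dimethylation of lysine 9 on histone H3 and a mark of repressed chromatin, was measured over the span of each gene as the log2 ratio of bound to input reads in bins of 2 kb. In serum the 76 members carried more of it than the typical gene: the median was 0.10 and 0.01 in the 2 libraries, against -0.86 and -0.97 over 23339 genes. The members below the expression test level had medians of 0.24 and 0.26, against -0.08 and -0.13 for all genes below that level. The 28 tested members had -0.45 and -0.58, against -1.69 and -1.78 for all genes tested in expression. These comparisons were not matched for gene span, and 14 of the 28 tested members are among the 20% of genes with the longest spans. After 24 h in 2i the medians of the members were 0.04 and 0.04. No member and no other gene was called (0% of 23339 in each direction, limma), although 5 members and 4134 genes had an unadjusted p under 0.05. When only bins near the gene start were used, 13 genes of all were higher and 5 lower.

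In LT2i 36 members were lower and 6 higher than in serum, against 45.8% and 5.98% of all genes. Without serum replicate 1, 22 were lower and 1 higher (29.6% and 3.17% of all genes), without serum replicate 2, 32 were lower and 1 higher (36.3% and 3.5%), and without LT2i replicate 1, 3 were higher (3.62%). The authors scaled these libraries to their read totals, so a change in the total amount of the mark cannot be seen, and all genes had a median change of -0.58. Setting the median of all genes to the same value in every library turned the split of the members to 45 higher and 6 lower, against 35.3% and 8.86% of all genes, so directions here are relative to the scaling. On the authors' scale the 28 members tested in expression had a median change of -0.86, near the -0.82 of all genes tested, with 23 lower and the other 5 not called. The 48 low members had 0.02, against -0.28 for all genes below the level, with 13 lower and 6 higher. The shares of all genes called within these classes were not counted, and 45.8% and 5.98% cover both classes together.

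The 3 largest falls were in Itga2b, Col9a3 and Itga10. Itga2b went from -1.26 and -1.73 in serum to -3.18 and -3.33 (change -1.76, SE 0.2, adjusted p = 0.00302), Col9a3 from -0.42 and -0.63 to -2.29 and -2.20 (-1.72, SE 0.12, adjusted p = 0.00232), and Itga10 from -0.65 and -0.90 to -2.41 and -2.45 (-1.65, SE 0.13, adjusted p = 0.00232). These genes have only 8, 12 and 9 bins. Among long genes Lama1, with 61 bins, went from 0.23 and 0.10 to -1.29 and -1.38 (-1.50, SE 0.1, adjusted p = 0.00232) and Lamc1, with 54, from -1.07 and -1.13 to -2.37 and -2.31 (-1.24, SE 0.12, adjusted p = 0.00239). The highest gain was in Col25a1, a collagen of neurons with 200 bins and 52 RNA reads over the 12 RNA libraries, which went from 0.60 and 0.61 to 1.12 and 1.08 (0.5, SE 0.08, adjusted p = 0.00592). Col24a1 went from 0.35 and 0.32 to 0.74 and 0.72 (0.4, adjusted p = 0.0114) and Col1a2 from 0.14 and 0.11 to 0.61 and 0.39 (0.38, adjusted p = 0.0313). Without the input subtracted, Col1a2 was not called (0.22, adjusted p = 0.119 in limma). The call of Col24a1 was lost without serum replicate 1 (0.41, adjusted p = 0.05) or 2 (0.38, adjusted p = 0.0526), and that of Col1a2 without any single library except LT2i replicate 2 (adjusted p between 0.0571 and 0.107). With the median set equal, Itga2b, Col9a3, Itga10 and Lama1 were again lower and Col25a1 again higher, while Lamc1 lost its call (-0.32, adjusted p = 0.0927). With only the bins within 2 kb of the gene start, the calls of these 6 were lost (Itga2b -0.87, Col9a3 -1.14, Itga10 -0.65, Lama1 -1.08, Lamc1 0.35 and Col25a1 -0.1, adjusted p between 0.109 and 0.843), and 4 of the 42 members called kept their call.

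Values on the authors' scale follow for chains whose RNA fell at 24 h or 72 h. Itga3, whose RNA was below serum at every time, stood at -2.11 and -2.96 in serum and -2.72 and -2.86 in LT2i (change -0.26, SE 0.33, adjusted p = 0.534). Lama5 changed by -0.87 (adjusted p = 0.0296), Itga6 by -0.97 (adjusted p = 0.00434) and Itgb1 by -0.79 (adjusted p = 0.0149). Col4a1 and Col4a2 changed by -0.45 (adjusted p = 0.0233) and -0.61 (adjusted p = 0.0111). The calls of Lama5, Itgb1, Col4a1 and Col4a2 were each lost when a single library was left out. With the medians of all genes set equal, Col4a1 (0.46, adjusted p = 0.0104) and Col4a2 (0.31, adjusted p = 0.0417) were called higher, and Lama5 (0.04, adjusted p = 0.894), Itgb1 (0.13, adjusted p = 0.611) and Itga6 (-0.06, adjusted p = 0.774) were not called. RNA was measured up to 72 h and LT2i only by ChIP-seq, so no gene has both readouts at the same late time.

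**Figure D5:**
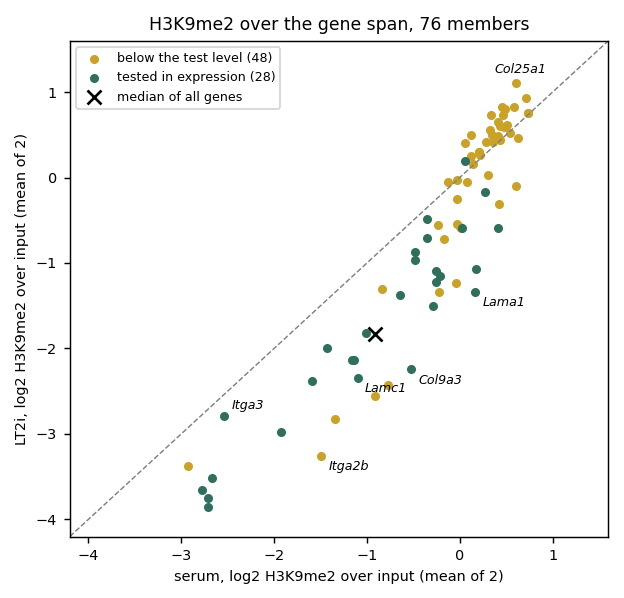
H3K9me2 over the gene span of the 76 members in serum and in LT2i, as log2 bound over input (means of 2 libraries), with members tested in expression and those below the test level in 2 colours and the median of all genes as a cross; the dashed line marks equal values. Points below the line were lower in LT2i, and most members above it were below the expression test level.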

How the data were processed

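RNA-seq libraries were 50-base single reads from a kit that does not mark strand. The authors deposited 1 table of log2 read density for each gene, in which length and library size had been divided out and the 75th percentile made equal. The counting method is not given in the sources used. The submitters' processing notes name TopHat2 2.0.11, Trim Galore 0.3.5, Bismark 0.12.3 and Bowtie2 with the builds GRCm38 and NCBIM37. A gene without reads had been entered as 0.9 reads. Undoing the scaling gave whole reads, within 0.01 of a read, for 99.84% of genes and for all 76 members. The deposited ChIP-seq table gives log2 read numbers for bins of 2 kb after scaling to library size, from which 14396552 to 23785128 reads per library were recovered.

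Log2 changes in expression were fitted with limma 3.58.1 in R 4.3.3 (all 12 libraries, trended variance) over genes at 0 or more in at least 3 libraries, with Benjamini-Hochberg adjustment over all 12306, and called at an adjusted p under 0.05. H3K9me2 was the log2 of the mean linear bin value over a gene's span minus that of the matched input, fitted by limma over 23339 genes. The 1 input of a condition was subtracted from both of its bound libraries, so the error of the input is not in the SE or p-values. On simulated data made for the comparison of 72 h with serum over 12306 genes, limma recovered 65 of 100 genes changed by 1 on the log2 scale and 16 of 100 changed by 0.5. Only these genes were changed there, while 3165 were called higher and 3264 lower in the data. The adjusted threshold depends on that share, so these rates do not carry over to the real fit.

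Values in every library were given for the 4 members with the highest mean level among collagens, laminins and integrins, the 3 largest called rises and falls at 72 h in each, and the main laminin chains and receptors. Members called at 6 h were named with their change, the head-to-head type IV pairs were given, and serum and LT2i values for the 3 largest H3K9me2 changes either way. The members and lists were chosen with earlier results of these data known. Alternatives were other scalings, filters, the replicate number as a block, and each library left out. Same-numbered libraries deviated together in all 3 pairs of serum with 6 h (r 0.159 to 0.542) and with 24 h (0.105 to 0.468), so blocked values stand beside results there where they change a call. They did not in all pairs with 72 h (lowest r 0.051 with serum and -0.249 with 24 h). Bisulfite files use the older build and hold no genes, so methylation of the members was not analysed here. Of the tested members, 1 enters the counts but is not reported here by name. Promoter sequence came from RefSeq (GRCm38.p6).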

Additional observations from a re-analysis of the deposited data

Results flagged for a closer look

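For the 11 tested members named here the change from serum at 24 h and that at 72 h differed by the test of the difference itself (72 h against 24 h in limma, adjusted p under 0.05). The difference was positive for Itgb3 (1.98), Itga6 (1.01), Lamc1 (0.99), Lama1 (0.89), Lamb2 (0.7) and Itga3 (0.55). It was negative for Col2a1 (-1.88), Col9a3 (-1.54), Col5a3 (-1.41), Col18a1 (-0.78) and Itgb7 (-0.69). In Lama1, Lamb2, Lamc1 and Itga3 the libraries of 24 h and 72 h overlapped, and these are the calls that were lost when single libraries were left out. In the other 7 they did not overlap. These members had been picked by the same comparison, and the share of all genes without overlap was not counted. Of all genes tested, 15.8% were higher and 15.7% lower in this comparison.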

How the results depend on the processing

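With genes at 1 or more in 3 libraries, the members higher in 2i numbered 1 at 6 h, 2 at 24 h and 2 at 72 h, while 2 fell from 24 h to 72 h, since low members then drop out. With no filter beyond 1 library above the floor, 11 were higher and 28 lower at 24 h, 28 lower at 72 h, and 13 rose and 11 fell from 24 h to 72 h. With the level of -2, chosen after seeing the data, 5 were higher at 6 h, 10 higher and 21 lower at 24 h, 20 lower at 72 h, and 8 fell from 24 h to 72 h. Requiring also a log2 change of 1 left 0 higher (3 by adjusted p alone in limma) and 1 lower at 6 h, 7 lower at 24 h, 7 lower at 72 h, and 2 rises and 3 falls from 24 h to 72 h. All genes called lower at 24 h and 72 h made up 30.1% and 26.8% with the level of 1, 26.6% and 25.1% with that of -2, 21.8% and 20.7% without a filter, and 12.4% and 9.56% with a change of 1 also required. Those higher made up 34.2% and 25%, 32.3% and 25%, 25.6% and 20.4%, and 15.1% and 11.4%. At 6 h, 8.26% of all genes were higher with the level of 1 and 9.3% with that of -2. With a change of 1 also required, 3% were higher and 2.3% lower at 6 h. From 24 h to 72 h, 14.9% of all genes fell with the level of 1 and 15.6% with that of -2. Without a filter 11.7% rose and 11.9% fell, and with a change of 1 also required 4.74% rose and 4.8% fell. With only the 6 libraries compared, 3 members rose from 24 h to 72 h. Over all 12306 genes 846 rose in that fit, against 1949 in the main fit.

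Leaving out single libraries gave 1 to 4 members higher at 6 h, 11 to 18 lower at 24 h, and 3 to 10 rises from 24 h to 72 h. Over all 12306 genes these runs gave 735 to 1416 higher at 6 h and 3155 to 3926 lower at 24 h. Rises over all genes from 24 h to 72 h numbered 1255 to 2951. The 3 rises of members came without 24 h replicate 1 or 2 or 72 h replicate 1 or 3, and the 10 without 24 h replicate 3. In LT2i the same gave 1 to 4 members higher and 22 to 32 lower in H3K9me2, with 22 without serum replicate 1. The replicate number as a block gave 16 members lower at 24 h, 6 higher and 13 lower at 72 h, and 8 rises and 6 falls from 24 h to 72 h. It changed no count of members by over 1.5 times. Over all 12306 genes the block gave 3948 lower at 24 h and 3730 higher and 3768 lower at 72 h. From 24 h to 72 h 2602 of all genes rose and 3189 fell, against 1949 and 1937 in the main fit. The block added the calls of Col2a1, Itga5 and Lama1 at 24 h and of Col4a1 and Itgb3bp at 72 h. It added both of the latter again from 24 h to 72 h, and removed none of the members' expression calls. The labels give only the number. The correlation was over 0.1 in 15 of 18 same-numbered pairs (median 0.292) and in 11 of 36 other pairs (median -0.208, highest 0.75). Deviations within a group add up to 0, so high values in some pairs force low ones in others. Of 12 samples, 7 correlated best with their own number. Limma voom on recovered reads, also chosen after seeing the data, moved the split of all genes at 72 h from 3165 higher and 3264 lower to 3798 and 2608, and gave 6 members higher and 10 lower.

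For H3K9me2 in LT2i, bins within 2 kb of the start gave 3 members higher and 6 lower (3.94% and 11.8% of all genes), and medians set equal gave 45 higher and 6 lower. Of the 42 members called, 17 turned sign with medians set equal and 7 with start bins. Among the 15 followed one by one, those that turned with medians set equal were Col18a1 (0.35), Col4a1 (0.46), Col4a2 (0.31), Itgb1 (0.13), Lama5 (0.04) and Lamb1 (0.44). With start bins they were Col25a1 (-0.1), Lama5 (0.16) and Lamc1 (0.35). No called expression change turned sign under any of the alternatives run, and the cause of the other moves was not tested. Depth limits the low members, of which 8 held 10 reads or fewer in all.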
